A study of Mus musculus with 6 samples.

Results

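Small nucleolar RNAs (snoRNAs) joined to exons of mRNAs made up 53177 of the 577900 distinct between-RNA contacts in the 3 MARIO libraries of mouse embryonic stem (ES) cells. MARIO joins RNA ends that 1 protein or protein complex holds near each other through a linker, so that each chimeric molecule has a first fragment (RNA1) before the linker and a second (RNA2) behind it. A contact was counted where 1 fragment was annotated as a snoRNA and the other as a 5′ UTR, exon or 3′ UTR of a protein-coding gene, with the ends over 2000 bp apart or on different chromosomes, and read pairs whose 2 fragments had the same coordinates were counted as 1. No measured value entered this choice. ES-1 held 37193 such contacts, ES-2 held 14515 and ES indirect held 1469. Read pairs with a ribosomal or unannotated end are not among the between-RNA contacts. Ribosomal ends alone took out 2508318 of 3230403 read pairs of ES-1, 1063543 of 1312314 of ES-2 and 1778255 of 3302146 of ES indirect. The whole series has 10479650 read pairs in 6 libraries, and MEF and brain were not used here.

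All 3 libraries came from undifferentiated E14 ES cells of strain 129/Ola, a single established line grown without feeder cells, with no genetic change or drug between them. ES-1 and ES-2 were irradiated with ultraviolet light of 254 nm, which joins RNA to the protein that touches it, and were cut with RNase I to about 1000 nt by the labels. The study's methods give a range that reaches longer fragments for ES-1 than for ES-2. Ribosomal RNA was then depleted in ES-1 by a duplex-specific nuclease and in ES-2 by the GeneRead kit, so these 2 assays also differ in depletion. ES indirect was fixed with formaldehyde and EGS, which join proteins to each other as well, was sonicated to about 1000 nt, and was depleted like ES-1. ES has 2 libraries and ES indirect has 1, so crosslinker, fragmentation and library cannot be told apart, and no test between groups was made.

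Most snoRNAs guide the chemical modification of ribosomal RNA in the nucleolus. H/ACA snoRNAs fold into hairpins followed by the boxes H and ACA, the latter close to the 3′ end, and guide pseudouridylation with the enzyme dyskerin. C/D snoRNAs carry box C (TGATGA) close to the 5′ end and box D (CTGA) close to the 3′ end, and guide 2′-O-methylation with fibrillarin. Many snoRNAs are cut out of introns of protein-coding genes. Mature mRNAs are mostly found in the cytoplasm.

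The sequences on which the comparisons turn are of 3 kinds. The first are the commonest mRNA fragments at the sites that recurred most often, as read, with bases that differ from the genome in capitals.

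Dcun1d4, chr5:73883761-73883779: CGcCcccCgggccgcggtt
Suv420h2, chr7:4691731-4691756: CGcgcGgcgcctcGcctcggccggcg
Park7, chr4:150288484-150288507: cGCgCGGcgcctcgcctcggccgg
2310067B10Rik, chr11:115650057-115650075: GTCCGgccgtgccggtggt
Fbxo10, chr4:45048912-45048929: gtCCggccgtgccggtgg
Trim25, chr11:88878858-88878878: caGCAGgacggtggccatgga

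Dcun1d4, 2310067B10Rik and Trim25 lie on the plus strand and were read in sense, whereas the fragments of Suv420h2, Park7 and Fbxo10 were antisense to the named gene. The 24 bases of the Park7 fragment are contained whole in the Suv420h2 fragment, and the 18 bases of the Fbxo10 fragment in that of 2310067B10Rik, although each pair lies on different chromosomes. The second kind is the first and last 30 bases of a 71-nt stretch of Snrpb, on the minus strand, with the letters of box C and box D in capitals.

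Snrpb first bases, chr2:129998685-129998714: attcaTGATGAaatagatccttgactgaag
Snrpb last bases, chr2:129998644-129998673: tctgtgtaattaagcaggattactCTGAga

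The third kind is the genome around the ends of snoRNAs, with the last annotated base in capitals, or, for the inner window, the base at which fragments most often ended inside the gene.

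Snora33 (minus strand), end, chr10:23505147-23505176: aggtccctgaaagtggctacagtAttattg
Snora73a (minus strand), end, chr4:131908684-131908713: agacaaaccatgcaggaaacagtTttttaa
Snora73a (minus strand), inner window, chr4:131908795-131908824: tgcccggtgatgtacAgtccctttccacaa
Snora81 (plus strand), end, chr16:23110983-23111012: gtcataagattcggtgcaataagTatttag
SNORA81 (plus strand), end, chr15:71624772-71624801: gtcataagattcggtgcaataagTctttag

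Coordinates are 1-based on NCBIM37, the mouse assembly of the files.

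The first comparison asked which snoRNAs met mRNA exons. The ultraviolet libraries were dominated by H/ACA snoRNAs, and ES indirect by C/D snoRNAs. By gene name, H/ACA snoRNAs held 78.2% of the contacts in ES-1 (95% Wilson interval 77.8 to 78.6), 75.03% in ES-2 (74.3 to 75.7) and 28.2% in ES indirect (25.9 to 30.5). C/D snoRNAs held 16.9%, 19.8% and 65.7%. In ES indirect 541 of the 965 C/D contacts were of the U3 family described below, and the other C/D snoRNAs together had about as many contacts as the 414 of H/ACA snoRNAs. These intervals, like all others below, cover counting error only, since the deposited lines carry no molecular identifier.

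The H/ACA share moved with the library more than with the partner. In ES-1 it was 77.0% where the partner was an mRNA intron and 76.9% where it was another RNA, and in ES-2 it was 71.9% and 72.4%. In ES indirect the corresponding shares were 29.04% and 29.3%, and only for contacts between 2 snoRNAs was it lower, at 7.14%. Of all between-RNA contacts, which leave out ribosomal and unannotated ends, contacts of snoRNAs with mRNA exons made up 15.5% in ES-1, 10.2% in ES-2 and 0.749% in ES indirect.

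The snoRNA genes most often joined to exons in both ES-1 and ES-2 were all of the H/ACA kind. Snora81 on chromosome 16, in an intron of the translation factor gene Eif4a2, had 2509 contacts in ES-1, 724 in ES-2 and 22 in ES indirect. Its copy on chromosome 15, SNORA81, had 945, 844 and 4. Both copies share the last bases shown above up to the annotated end, so fragments from inside the gene may have been divided between them. Snora73a and Snora73b, 2 copies of U17 in Rcc1 with a role in cutting the ribosomal precursor, had 1348 and 1345 contacts in ES-1 against 493 and 438 in ES-2, with 25 and 11 in ES indirect. Snora33, in the ribosomal protein gene Rps12, had 1228, 536 and 19. Snora44 had 781, 349 and 6, and SNORA1, in Taf1d, had 674, 227 and 3. SNORA48, in Eif4a1, had 565, 236 and 8, and SNORA57 had 506, 228 and 10. The order of the snoRNA genes was similar but not equal in both assays, and SNORA63 on chromosome 4 had more contacts in ES-2 (416) than in the deeper ES-1 (339). The 10 most frequent snoRNA genes of each library together held 30.3% of the contacts in ES-1, 30.9% in ES-2 and 42.4% in ES indirect.

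U3, a C/D snoRNA that acts in processing the ribosomal precursor and has several nearly identical gene copies, was the leading family of ES indirect. It held 36.8% of the contacts there (541 contacts with 456 mRNAs), against 1.00% in ES-1 and 0.530% in ES-2. How these contacts were divided among the copies is uncertain.

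Contacts of a snoRNA with an exon of its own host gene were counted apart. Few could fall on any single gene, since exons of all 179 host genes together held 3.95% of the contacts in ES-1, 2.25% in ES-2 and 4.08% in ES indirect, and no expected number was computed. Of 24553 contacts in ES-1 whose snoRNA lies within a protein-coding gene, 1 joined the snoRNA to the exons of that gene, a contact of SNORA48 with Eif4a1. In ES-2 there were 0 of 8568, which allows up to 0.0350%, and in ES indirect 0 of 969, which allows up to 0.310%. Only ends over 2000 bp apart entered, so a host exon nearer than that could not be counted.

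The second comparison asked how sure the place of the mRNA end is. By sequence match and strand, the snoRNA ends were secure in every library. Their sequence matched the genome at the stated place, with up to 15% mismatches, in 99.6% of ES-1, 99.1% of ES-2 and 99.5% of ES indirect, and 98.4%, 98.5% and 99.2% lay on the strand of the snoRNA. Neither check can tell similar copies of a snoRNA gene apart, such as those of SNORA81 or U3. The mRNA ends were less secure. They matched at the stated place in 78.9% of ES-1 (78.4 to 79.3), 58.5% of ES-2 (57.7 to 59.3) and 82.4% of ES indirect (80.4 to 84.3), and were on the strand of the named mRNA in 85.1%, 71.1% and 86.4%. A stretch of 16 bases that recurs in fragments annotated as ribosomal RNA lay in 15.3%, 28.5% and 8.10% of them.

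The share of secure mRNA ends changed with the length of the fragment, but not steadily. The median mRNA fragment of ES-1 had 42 nt, that of ES-2 23 nt and that of ES indirect 50 nt, and 13.0%, 30.2% and 12.3% of fragments were shorter than 20 nt. Of ends of 35 to 59 nt, 99.7% matched in ES-1, 99.4% in ES-2 and 100% in ES indirect, and 0.201%, 0.179% and 0.518% held a ribosomal stretch. Of ends of 20 to 24 nt, 29.4%, 28.8% and 26.0% matched, and 45.7%, 48.4% and 29.9% held a ribosomal stretch. Between these lengths, at 25 to 34 nt, the match was 59.9% in ES-1 (58.6 to 61.2), 48.7% in ES-2 (47.0 to 50.5) and 48.2% in ES indirect (40.7 to 55.7). The intervals of ES-1 and ES-2 did not overlap, but they treat repeated fragments as separate ends. The fragment of Suv420h2 shown above, of 26 nt with 4 mismatches, alone gave 133 ends in ES-1 and 262 in ES-2. The shortest ends, of 16 to 19 nt, matched more often than those of 20 to 24 nt, with 62.9%, 62.8% and 67.8%, while 42.6%, 37.6% and 22.8% of them held a ribosomal stretch.

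**Figure D1:**
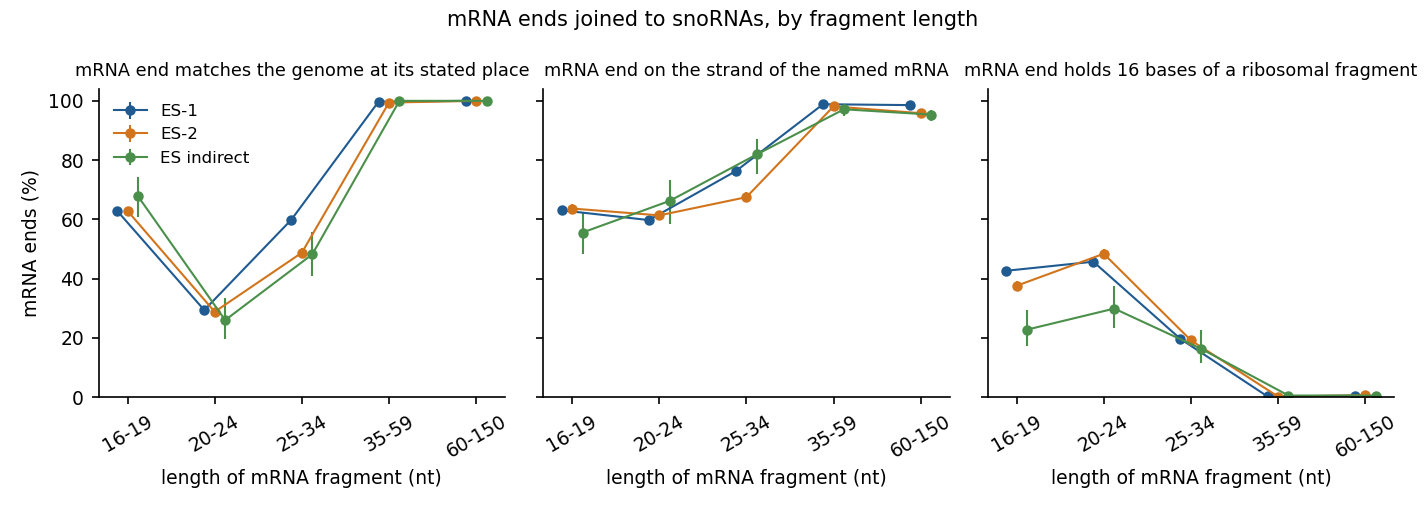
Share of mRNA ends (%) that match the genome at their stated place, lie on the strand of the named mRNA, or hold 16 bases of a ribosomal fragment, against the length of the mRNA fragment (nt). Points are ES-1 (blue), ES-2 (orange) and ES indirect (green), and bars are 95% Wilson intervals. From 35 nt upwards over 99% of ends matched in each library, and at 20 to 24 nt under 30% did.

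A screen was therefore added after these values were seen. Screened contacts have both fragments of at least 20 nt and matching the genome, neither antisense to its gene nor holding a piece of the linker, and an mRNA end free of 16-base stretches of ribosomal RNA and other small RNAs. The screen left 24729 contacts in ES-1, 4960 in ES-2 and 1023 in ES indirect. The H/ACA share stayed at 78.8%, 77.7% and 25.4%. Values below are for all contacts unless they are said to be screened.

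The third comparison asked which mRNAs recurred. Among all contacts, 3913 mRNAs had a snoRNA contact in both ES-1 and ES-2, which is 44.3% of the 8825 mRNAs of ES-1 and 76.7% of the 5099 of ES-2. Among exonic mRNA ends joined to other partners, 5461 mRNAs recurred, or 71.1% and 64.0%. After the screen 2308 mRNAs recurred (34.5% and 80.5%), against 961 with other partners (28.3% and 53.8%). Screened ES-1 and ES-2 held 24729 and 4960 snoRNA contacts, against 7845 and 2534 ends with other partners. Recurrence rises with the number of contacts, so these shares do not compare how well the 2 kinds of contact reproduce. The number of contacts of an mRNA also depends on how much of it the cells held, which these libraries do not measure apart.

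Recurrence fell off from mRNAs to places. Sites were defined as runs of mRNA ends of 1 gene whose neighbouring middles lay within 200 bp. They recurred in 2705 cases (13.2% of the sites of ES-1 and 35.7% of ES-2), and in 1441 after the screen (9.07% and 33.8%). Ends at 1 site can thus lie much further apart than 200 bp in mRNAs with many contacts. A screened site of Eef2, for instance, spans chr10:80641820-80643118. The same snoRNA gene with the same mRNA recurred in 1788 pairs (5.63% and 14.6%), and in 532 after the screen (2.45% and 11.05%). Contacts with identical coordinates of both fragments numbered 23, and 2 after the screen, so the assays did not hold the same molecules to any extent.

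The mRNAs recurring most among all contacts were led by single short sites. Dcun1d4, a factor in cullin neddylation, had 472 contacts in ES-1, 555 in ES-2 and 1 in ES indirect. Of its contacts in ES-1 and ES-2, 1026 of 1027 lay at 1 site in the 5′ UTR, with a median fragment of 19 nt that matched the genome in 14.2%. The same mRNA was joined to other partners 137 times in ES-1 and 1259 times in ES-2. Its fragment, shown above, was joined to 154 snoRNA genes.

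Suv420h2, a histone methyltransferase, had 280, 418 and 0 contacts, of which 687 of 698 in the ES libraries lay at 1 site and 1.72% were in sense. Park7, which encodes DJ-1, had 59, 149 and 1, of which 202 of 208 lay at 1 site, and its commonest fragment is part of that of Suv420h2. 2310067B10Rik had 234, 212 and 0 contacts, and 97.8% of those in the ES libraries held a ribosomal stretch. Fbxo10, an F-box protein gene, had 65, 52 and 0 with essentially the same fragment, and a ribosomal stretch in 100% of those of the ES libraries. These pairs of genes thus shared 1 read sequence each.

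Trim25, a ubiquitin ligase gene that the study names with Snora1, had 213 contacts in ES-1, 172 in ES-2 and 1 in ES indirect. A ribosomal stretch lay in 207, 171 and 1 of them. SNORA1 accounted for 15 contacts of ES-1 and 19 of ES-2. All 34 held a ribosomal stretch and none passed the screen. In all, 87 snoRNA genes met Trim25 in ES-1 and 69 in ES-2.

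The other short sites behaved alike. Pappa (121 contacts in ES-1, 135 in ES-2 and 1 in ES indirect), Grrp1 (109, 156, 2), Grk1 (158, 93, 0), 2210011C24Rik (79, 132, 1) and Spnb4 (56, 112, 0) each had between 94.6% and 100% of their contacts in the ES libraries at 1 site, and a commonest fragment of 16 to 20 nt. At Grrp1, Grk1, 2210011C24Rik and Spnb4, a ribosomal stretch lay in 94.6% to 100% of the ends. Pappa is the exception, with none and a fragment of 16 nt. Eef2, the elongation factor that moves the ribosome along, was the only one of the 12 mRNAs without a dominant site, with 199, 53 and 3 contacts and 99.2% of its ends matching. Together the 12 mRNAs held 5.50% of the contacts of ES-1, 15.4% of ES-2 and 0.681% of ES indirect.

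Over all mRNAs, 75 identical fragments had at least 20 contacts each in ES-1 and ES-2 together, and made up 9.36% of the contacts. Of these, 60 did not match the genome or held a ribosomal stretch, and their median length was 20 nt.

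After the screen, the order of the mRNAs changed and Eef2 came first. Eef2 had 189 contacts in ES-1, 45 in ES-2 and 3 in ES indirect, with 93 snoRNA genes in the ES libraries. Hsp90ab1, a cytosolic chaperone, had 139, 35 and 4, and Eef1a1, the factor that brings aminoacyl-tRNA to the ribosome, had 128, 30 and 2. No more than 51.3% of the contacts of any of these 3 mRNAs lay at 1 site. Their sites with at least 10 contacts were coding by GENCODE, except for 1 of Eef2 in the 3′ UTR, chr10:80644630-80645213, which held 49 of its 234 contacts in the ES libraries. Fn1 (fibronectin) had 89, 20 and 1, Pabpc1 (poly(A)-binding protein) 73, 15 and 4, and Hspg2 (perlecan) 57, 14 and 2. The glycolytic enzymes Pkm2 and Aldoa had 84, 14 and 2, and 50, 15 and 0. Gnb2l1, which encodes a protein of the small ribosomal subunit, had 51, 14 and 1, and Dync1h1, the dynein heavy chain, had 53, 13 and 0. Fn1 and Hspg2 were spread most, over 39 and 45 sites. Snrpb and Chn1 completed the 12 and were different in kind.

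**Figure D2:**
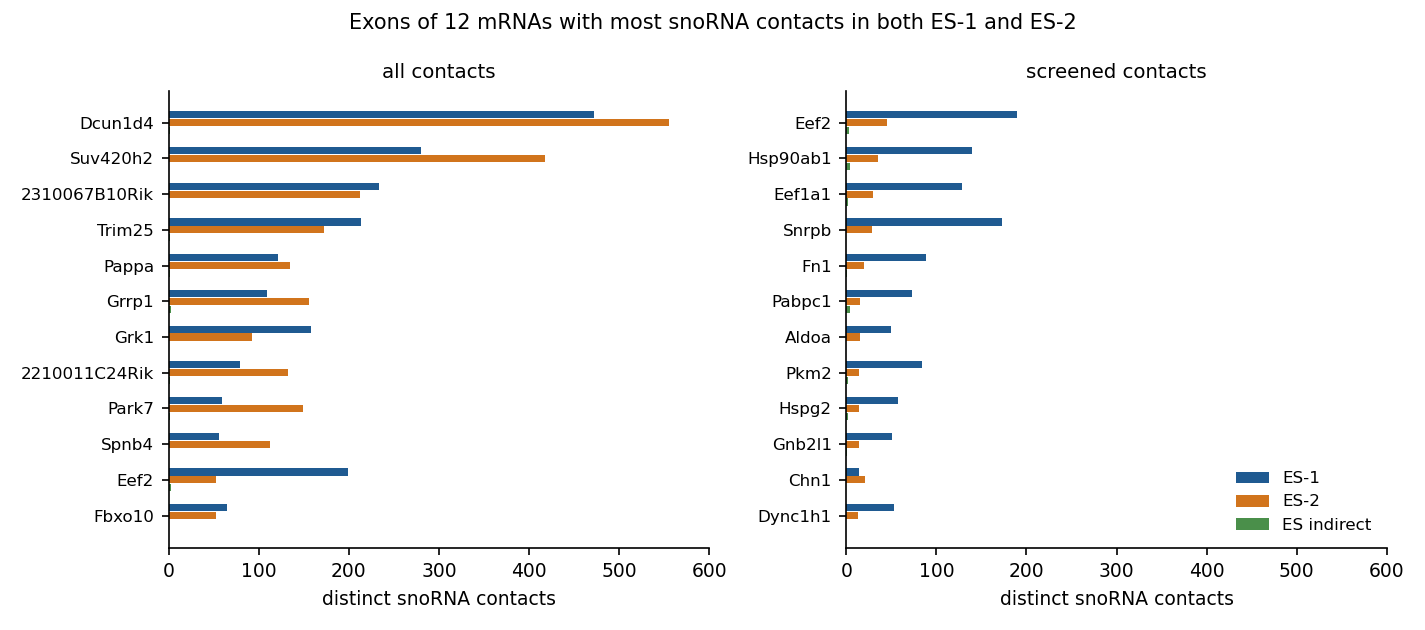
Distinct contacts with snoRNAs (horizontal axis) for the 12 mRNAs with the largest smaller number of contacts in ES-1 and ES-2, among all contacts (left) and screened contacts (right), with ES-1 in blue, ES-2 in orange and ES indirect in green. Dcun1d4 leads the left panel with 472 and 555 contacts, and Eef2, with 189 and 45, leads the right panel and is the only mRNA in both.

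Snrpb encodes a core Sm protein of the spliceosomal small nuclear ribonucleoproteins. It had 173 screened contacts in ES-1, 29 in ES-2 and 0 in ES indirect, with 89 snoRNA genes. Of the 202 in the ES libraries, 200 lay at 1 site, chr2:129998643-129998896, and 192 lay inside the 71-nt stretch whose first and last bases are shown above. The deposited region is a 3′ UTR, but in GENCODE the place is an exon of a retained-intron transcript alone and an intron of the coding transcript.

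Most Snrpb fragments began at 1 place. Of the 202, 155 had their 5′ end within 2 nt of the first base of the stretch, and 58 had their 3′ end within 2 nt of its last base. The first base and the base before it held 74 and 50 of the 173 starts of ES-1, but 10 and 5 of the 29 of ES-2. Others began at bases 49 to 53. TGATGA begins at base 6 and CTGA at base 66 of the 71. Among annotated snoRNA genes of NCBIM37, TGATGA in the first 15 bases together with CTGA in the last 12 was found in 58.4% of the 397 with C/D names and 0.0970% of the 1031 with H/ACA names. In human, an intron of SNRPB is known to host a C/D snoRNA. Whether the Snrpb fragments came from the mRNA or from a small RNA cut out of its intron was not tested.

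**Figure D3:**
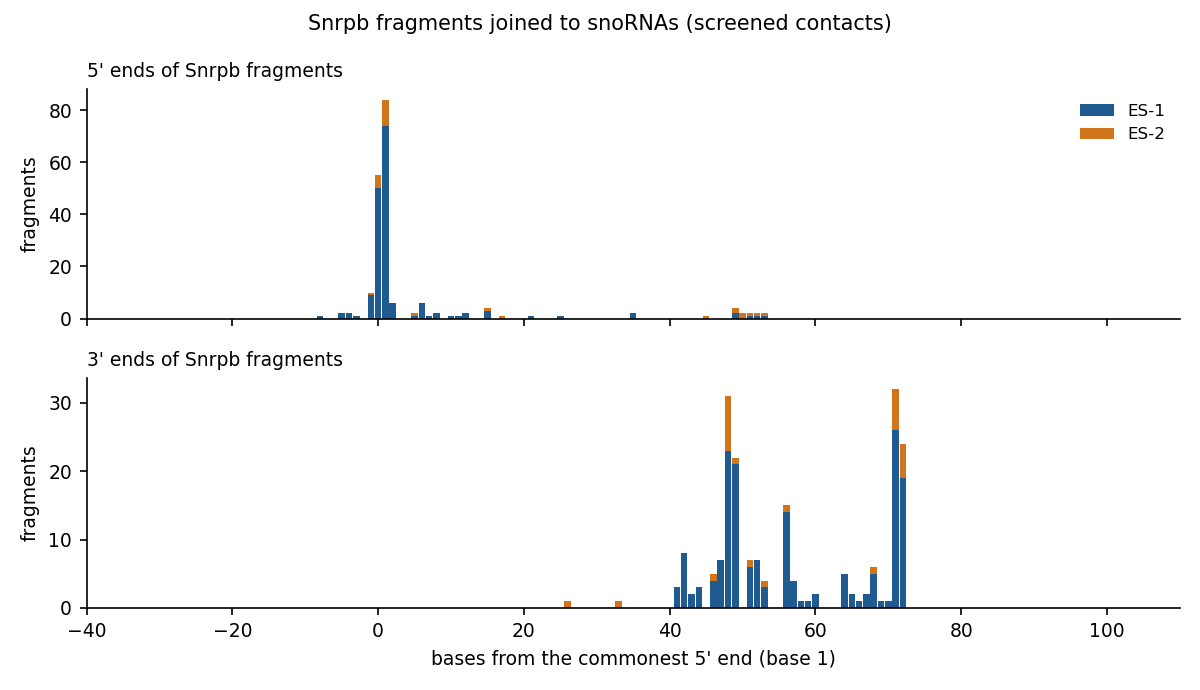
Number of Snrpb fragments (vertical axis) by the place of their 5′ end (top) and 3′ end (bottom), in bases from the commonest 5′ end, which is base 1, for screened contacts of ES-1 (blue) and ES-2 (orange, stacked). The 5′ ends gather at base 1, where 155 of 202 lie within 2 bases, whereas the 3′ ends have several peaks, the last at base 71.

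Such a shared start was uncommon. Of 139 screened mRNA sites with at least 10 contacts, 3 had 50% or more of their fragments sharing the 5′ end to within 2 nt. These were Snrpb, Chn1, a GTPase-activating protein gene, and Atp5b, a subunit of ATP synthase. At Chn1, in the 5′ UTR, 34 of 35 fragments began within 2 nt of 1 base, and 34 ended within 2 nt of another, 21 nt being the span. Of the 35, 17 were identical in place and read sequence. At Atp5b 6 of 10 shared the start. At the other 5 sites only the 3′ end was shared to this extent, by 8 of 11 fragments of Serbp1, an mRNA-binding protein gene, by 6 of 10 of Gnb2l1 and of Pkm2, by 6 of 12 of Rpl4, of the large ribosomal subunit, and by 5 of 10 of Fem1b.

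The fourth comparison asked where along the mRNA the contacts lay. Among all contacts, the coding exons held the largest share in every library, and ES-2 had most 5′ UTR. In ES-1, 16.995% (16.6 to 17.4) were in the 5′ UTR, 55.1% (54.6 to 55.6) in the exon class and 27.9% (27.5 to 28.4) in the 3′ UTR. In ES-2 the shares were 27.6% (26.9 to 28.3), 50.8% (49.9 to 51.6) and 21.7% (21.0 to 22.3), and in ES indirect 15.2% (13.5 to 17.2), 55.0% (52.4 to 57.5) and 29.7% (27.5 to 32.1). Ends joined to other partners had 15.8%, 30.9% and 12.5% in the 5′ UTR in the same order of libraries. The 5′ UTR share thus moved with the library for any partner.

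The screen removed most 5′ UTR ends of the ultraviolet libraries, leaving 2192 of 6321 in ES-1 and 544 of 4005 in ES-2, whereas in ES indirect 129 of 224 were left. The 5′ UTR share became 8.86% in ES-1 (8.52 to 9.22), 10.97% in ES-2 (10.1 to 11.9) and 12.6% in ES indirect (10.7 to 14.8). The exon share became 59.7%, 62.2% and 58.3%, and the 3′ UTR share 31.5%, 26.9% and 29.1%. Screened ends joined to other partners gave 8.95%, 12.8% and 9.85% in the 5′ UTR and 29.1%, 26.2% and 27.7% in the 3′ UTR. Among screened contacts, the widest gap of a single library was in the exon share of ES indirect, where snoRNA partners minus other partners was -4.23 percentage points (95% interval -7.34 to -1.19). In the 3′ UTR, snoRNA contacts exceeded others by 2.36 points in ES-1 (1.19 to 3.51) and by 0.691 points in ES-2 (-1.44 to 2.78), so that the gap of ES-2 is within counting error. Among all contacts it was the other way round, with 0.264 points in ES-1 (-0.436 to 0.963) and 2.43 in ES-2 (1.65 to 3.21). H/ACA and C/D snoRNAs had 5′ UTR shares of 8.72% and 9.42% in screened ES-1, of 10.6% and 11.8% in screened ES-2, and of 14.6% and 11.9%, in the opposite order, in screened ES indirect.

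**Figure D4:**
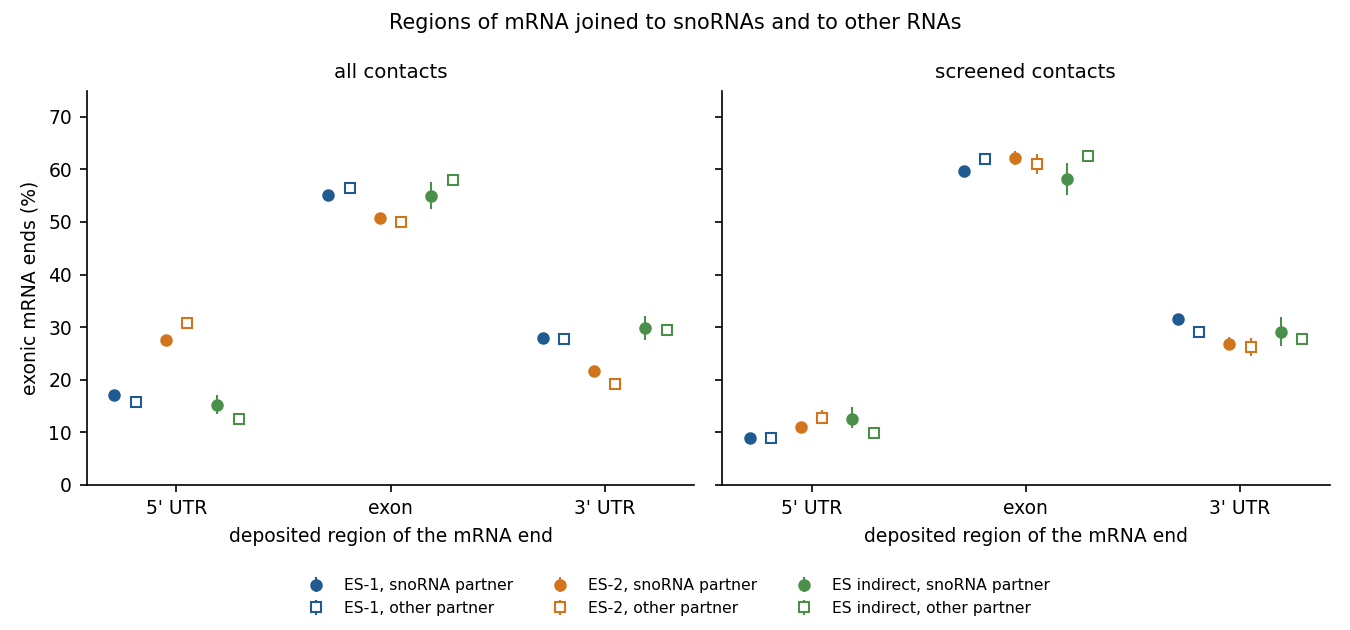
Share of exonic mRNA ends (%) by deposited region, among all contacts (left) and screened contacts (right), for snoRNA partners (filled circles) and other partners (open squares), with 95% Wilson intervals. Within each library, filled and open symbols lie near each other, and the 5′ UTR share of ES-2 with snoRNAs drops from 27.6% to 10.97% in the right panel.

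The deposited region names were checked against GENCODE by the middle of each screened end of ES-1 and ES-2. Of those in the exon class, 97.6% were coding sequence, and of those in the 3′ UTR class, 81.8% were 3′ UTR. Of those in the 5′ UTR class, however, 49.6% were 5′ UTR and 39.6% coding. Among all contacts of ES-1 and ES-2, 76.1% of this class were 5′ UTR and 14.6% coding. Where transcripts of a gene differed, coding was taken before 3′ UTR and 3′ UTR before 5′ UTR. This rule can only lower the GENCODE share of 5′ UTR. All 65 screened contacts of Gnb2l1 in ES-1 and ES-2 were deposited as 5′ UTR, for instance, while the 3 sites with at least 10 contacts, which held 18, 17 and 10 of them, are coding by GENCODE. By GENCODE, 66.2% of screened ends were coding, 25.5% in the 3′ UTR, 4.69% in the 5′ UTR and 1.87% in exons of noncoding transcripts only.

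The fifth comparison asked which part of the snoRNA faced the linker. The linker-facing end is the 3′ end of a snoRNA that is RNA1 and the 5′ end of one that is RNA2. The snoRNA was RNA1 in 80.5% of contacts in ES-1, 72.5% in ES-2 and 48.8% in ES indirect. In ES-1 and ES-2 most linker-facing ends lay near an end of the mature snoRNA. In ES-1, 63.3% of H/ACA ends lay in the last 10% of the gene as RNA1, or in the first 10% as RNA2, and in ES-2 77.3% did. For C/D snoRNAs the shares were 80.2% and 83.6%. After the screen they were 56.6% and 76.3% for H/ACA and 76.2% and 85.5% for C/D snoRNAs. In ES indirect they were lower, at 48.6% for H/ACA (43.8 to 53.5) and 42.4% for C/D (39.3 to 45.6), and at 45% and 39.9% after the screen.

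With other partners the picture depended on the screen and the library. Among screened H/ACA snoRNAs as RNA1 in ES-1, 49.3% of ends lay within 5 nt of the annotated 3′ end where the partner was an exon, 49.8% where it was an intron, 50.3% where it was another RNA and 47.6% where it was a snoRNA. In ES-2 the shares were 76.2%, 73.9%, 76.1% and 72.4%. Among all contacts of ES-1 they were further apart, at 56.3%, 68.6%, 64.0% and 48.5%. In ES indirect, the share of C/D ends in the terminal 10% of the gene was 42.4% with exons, 51.0% with introns and 10.3% with snoRNAs. Single H/ACA snoRNAs as RNA1 with at least 10 contacts were also compared by their share within 5 nt of the 3′ end. Among screened contacts of ES-1, 29 of them were higher with exons than with introns and 30 were lower. Among all contacts of ES-1, 18 were higher and 90 lower. ES-2 had no such imbalance before the screen, with 41 higher and 42 lower and shares of 78.5% with exons and 79.8% with introns.

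Single snoRNA fragments often ended, as deposited, 1 base past the annotated gene. The linker joined behind RNA1 begins with C by the study's methods, so where that last base is C it may belong to the linker, and the snoRNA itself may then end at its annotated end. Snora33 has 129 bases, and 538 of 970 RNA1 ends in ES-1 (55.5%) and 312 of 478 in ES-2 (65.3%) were at base 130. Snora73a and Snora73b have 205 bases, and base 206 held 33.8% and 55.8% of RNA1 ends in ES-1 and 40.3% and 59.8% in ES-2. For SNORA81 on chromosome 15, base 179 of a gene of 178 held 81.6% and 91.9%. The copy on chromosome 16 had 30.2% at base 179 in ES-1 and 9.57% in ES-2. Others stopped further out, SNORA63 of 130 bases most often at base 133 (76.7% and 75.8%) and Snora74a of 196 bases at base 198 (56.2% and 63.0%). RNA2 fragments of Snora33, both SNORA81 copies and Snora44 most often began at base 1.

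Some snoRNAs also ended at an inner place that recurred in both assays. Snora73a ended at base 86, inside the window shown above, in 13.9% of RNA1 ends of ES-1 and 21.9% of those of ES-2, and Snora73b at the same base in 8.73% and 15.0%. As RNA2, Snora73a began at base 86 in 31.6% and 15.6%. Snora81 on chromosome 16 ended at base 132 in 7.30% and 14.1%. SNORA48 as RNA2 began at base 44 in 18.5% and 17.2%. Snora33 had no such place over 1% as RNA1.

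**Figure D5:**
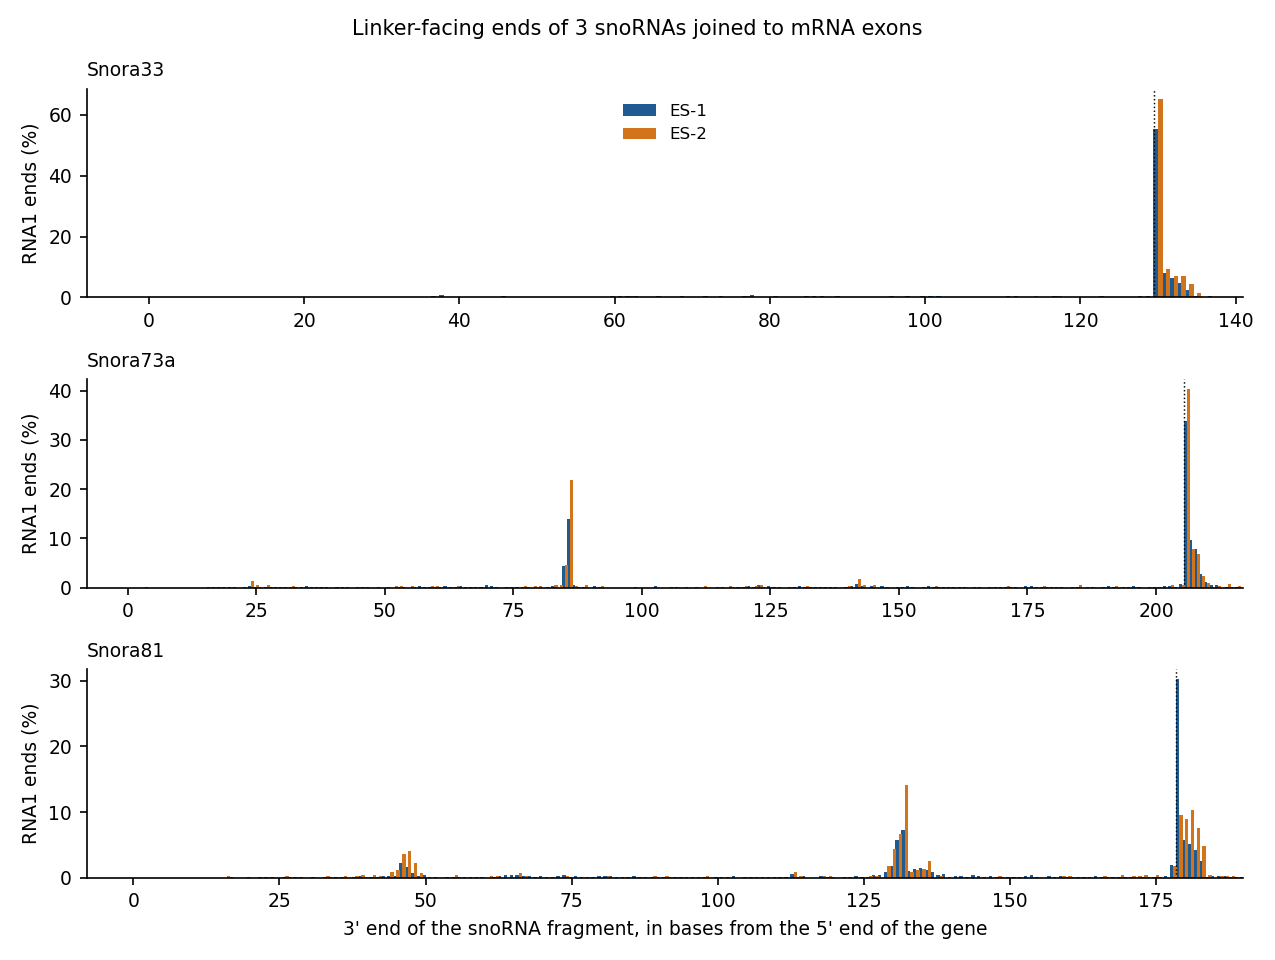
Share of RNA1 ends (%) by the base of the gene at which the snoRNA fragment stopped, counted from the 5′ end, for Snora33, Snora73a and Snora81 of chromosome 16 joined to mRNA exons in ES-1 (blue) and ES-2 (orange, drawn beside it). Dotted lines mark the annotated 3′ ends, and the tallest bars lie at base 130, 206 and 179, with inner peaks at base 86 of Snora73a and base 132 of Snora81, which is the tallest of ES-2 there.

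The extra base was nearly always C. At 1 base past the end, the last base read was C in 98.8% of 850 fragments of Snora33, 97.7% of 522 of Snora73a and 96.1% of 588 of Snora81, while the genome has T, T and A there, as the windows above show. For SNORA81 on chromosome 15 the genome base is C, and 99.1% of 1402 fragments had it. These 2 copies differ by that base within the window, so an added C and a true SNORA81 end of chromosome 15 read the same. Over all snoRNA fragments as RNA1, the last base was C in 78.1% in ES-1, 92.9% in ES-2 and 65.3% in ES indirect, whereas the genome has C at 26.1%, 28.9% and 29.9% of those places. Moving RNA1 ends inwards by 1 base gave C in 16.4%, 15.6% and 18.9%. Whether the C is the first base of the linker was not tested, and the positions given for RNA1 hold to 1 base only.

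In ES indirect, fragments of most U3 copies also ended most often past the gene. In 4 copies on chromosome 11, each of 214 bases, the commonest RNA1 end was base 216, with 16 of 63, 9 of 53, 14 of 55 and 9 of 56 ends. The copy on chromosome 10, of 212 bases, had 9 of 33 at base 214. The copy on chromosome 19 had no such end, with 3 of 31 at base 72 and 3 at base 126. The rest were spread along the gene.

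The sixth comparison asked which pairs of a snoRNA and an mRNA met more often than their own totals predict. For each observed pair of RNAs, a one-sided Fisher's exact test was made over all between-RNA contacts. Exons and introns of a gene were taken as separate RNAs here. The predicted number was the product of the totals of both RNAs divided by the number of contacts. Each contact has 2 ends, so random joining of ends would give a smaller number, and the test is stricter than that. Calls needed an adjusted p under 0.05 (Benjamini-Hochberg over all observed pairs) and at least 3 contacts. In ES-1 and ES-2 together, 300 of 42231 snoRNA to exon pairs were called (0.710%), against 0.946% of all observed pairs. The number depended on the rules of counting, with 4956 where every deposited line was counted, 1221 with a minimum of 2 contacts and 51 with a minimum of 5. The share called over all observed pairs was not computed under these other rules, so these counts say nothing particular to snoRNAs. In ES-1 262 pairs were called (0.826%) where 1.13% of all pairs were, in ES-2 47 (0.383%) where 0.735% were, and in ES indirect 3 (0.207%) where 2.52% were. Most pairs had too few contacts to be called. Of the pairs with at least 3 contacts, 19.1% of 1574 snoRNA to exon pairs were called in the merged ES libraries against 12.1% of all pairs. ES-1 had 28.95% of 905 against 13.1%, ES-2 had 11.9% of 396 against 15.4%, and ES indirect had 3 of 3 against 57.4%. Contacts are the unit of the test, so its p-values carry no replicate error.

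The 262 calls of ES-1 alone and the 47 of ES-2 alone had 7 pairs in common. The overlap over all called pairs of RNAs was not computed, so whether 7 is few cannot be said. Of the 300 pairs called in both assays together, 80 had a contact in each. Of the 1360 contacts in the 300 pairs, 54.4% passed the screen, against 57.4% of all contacts, and 69 pairs had none that passed. The 12 pairs with most contacts among these 80 were single short sites. Snora81 with Stard4, a sterol transfer protein gene, had 139 contacts in ES-1, 4 in ES-2 and 1 in ES indirect, and 2.098% of its ends in the ES libraries matched the genome. The other 11 had a ribosomal stretch in 100% of ends. They include SNORA63 with Grrp1 (2 in ES-1 and 32 in ES-2, 4.83 predicted in both together, adjusted p = 3.36e-15 by the exact test) and SNORA1 with Trim25 (15 and 19, 7.55 predicted, adjusted p = 7.05e-10). SNORA51 of the X chromosome with Trim25 had 4 and 12 contacts where 0.481 were predicted. SNORA29 (5 and 8), SNORA51 of chromosome 2 (4 and 5), Snord13 (3 and 6) and Snora33 (14 and 10) were also called with Trim25. Snora73a was called with 2210011C24Rik (9 and 16), Snora81 with Ccnjl (6 and 3), Snora61 with Abcb8 (7 and 1) and a snoRNA of clone name AC150277 with Psmd4 (6 and 5).

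After the screen, the 2 assays together gave 201 called pairs of 25993 (0.773%), where 1.41% of all pairs were called. Alone, ES-1 gave 184 (0.848%) where 1.51% of all pairs were called, and ES-2 gave 2 (0.0415%) where 1.14% were, with none in common. Screened ES-2 had only 9 snoRNA to exon pairs with at least 3 contacts, so little could be shared. The overlap over all called pairs was not computed. ES indirect gave 1 (0.0990%) where 4.45% of all pairs were called. Of the screened pairs with at least 3 contacts in the merged ES libraries, 34.5% of 582 were called against 11.5% of all pairs. Of the 201, 37 had contacts in both libraries. The largest of these 37 were small. SNORA67 with Pabpc1 had 6 contacts in ES-1 and 1 in ES-2 where 1.71 were predicted (adjusted p = 0.0175 by the exact test), spread over 4 sites. Snora73a with Sall4, a pluripotency factor, had 4 and 1. SNORA63 with the linker histone Hist1h1e had 2 and 2 where 0.373 were predicted (adjusted p = 0.00787 by the exact test), and all lay at 1 site in the coding exon. Snora44 with Spint2, a protease inhibitor gene, had 3 and 1 at 1 site. Snora33 with Hnrnpl (3 and 2), Snora43 with Trip12 (3 and 1), Snora15 with Uba1 (3 and 1), Snora3 with Parp1 (3 and 1), SNORA48 with Bsg (2 and 2), SNORA3 with Bin2 (2 and 1) and Snora15 with Zfp259 (1 and 2) were also among the 12 with most contacts of these 37. Called pairs seen in 1 library only were not ranked.

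Gene groups were compared by the share of their screened exonic ends that were joined to a snoRNA, with ends joined to ribosomal RNA left out. Over all mRNAs this was 75.9% in ES-1, 66.2% in ES-2 and 3.77% in ES indirect, whereas before the screen it was 57.7%, 27.1% and 2.66%, so the level in ES-2 rests largely on the screen. Replication-dependent histone mRNAs, which lack a poly(A) tail, had the lowest share of the 10 lists in ES-1 and in ES-2. It was 53.2% of 866 ends in ES-1 (49.9 to 56.5), 53.6% of 196 in ES-2 (46.6 to 60.4) and 1.17% of 4280 in ES indirect (0.887 to 1.54), below that of all mRNAs in each library. Before the screen it was 45.3%, 20.6% and 1.03%, again below all mRNAs. The 3 with most contacts before the screen were Hist1h1d (26 contacts in ES-1, 6 in ES-2 and 2 in ES indirect), Hist1h3i (17, 12, 1) and Hist1h3e (13, 10, 1). Of the 67 histone genes, 62 had a screened contact in ES-1 and 42 in ES-2.

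Among the groups tied to the nucleolus and ribosome, factors of ribosomal RNA processing had a higher share than all mRNAs (75.4 to 76.4) in ES-1, although the intervals just overlap. They had 81.6% of 250 ends there (76.3 to 85.9), 28 of 35 in ES-2 (64.1% to 89.96%, which includes the 66.2% of all mRNAs) and 3.14% of 159 in ES indirect. The share in ES indirect was below the 3.77% of all mRNAs. Before the screen they had 62.97%, 23.7% and 2.14%, where all mRNAs had 57.7%, 27.1% and 2.66%. They were led by Ncl (nucleolin, 61, 6 and 4 contacts before the screen), Mybbp1a (23, 7, 0) and Npm1 (nucleophosmin, 26, 3, 0). Proteins of the snoRNA particles had 78.2% of 55, 76.5% of 17 and 0 of 55, which allows up to 5.45%, with Dkc1 (dyskerin, 10, 2, 0), Nop56 (6, 2, 0) and Tcof1 (4, 4, 0). Pseudouridine synthases had 13 of 16 ends in ES-1, 3 of 4 in ES-2 and 0 of 12 in ES indirect, which allows up to 25%, with Pus1 (2, 1, 0) and Pus3 (1, 0, 0) after Dkc1. Cytosolic ribosomal protein mRNAs had 74.3%, 67.4% and 1.81%, the last with an upper bound of 2.96% and so below all mRNAs of ES indirect, with Rpl4 (58, 4, 2), Rpl8 (23, 11, 0) and Rpl13a (26, 6, 0). Translation factors and chaperones had 75.6%, 67.7% and 4.75%, led by Eef2, Hsp90ab1 and Eef1a1.

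Cytoskeletal mRNAs had 75.2%, 61.3% and 2.30%, with Tubb5 (66, 12, 2), Actb (64, 11, 2) and Actg1 (14, 7, 1). Nuclear RNA-binding and splicing proteins had 71.9%, 69.9% and 4.83%, with Srrm2 (61, 20, 0) and Hnrnpl (24, 6, 1) among those with most contacts. Of 15 markers of pluripotent cells, 15 had exonic ends in ES-1 and in ES indirect and 14 in ES-2, with Esrrb (31, 9, 0), Tfcp2l1 (30, 7, 4) and Trim71 (28, 7, 0) leading in snoRNA contacts. Their screened share was 75.4%, 69.5% and 6.37%. Of 15 fibroblast markers, 8 had exonic ends in ES-1, 9 in ES-2 and 8 in ES indirect, and Fn1 held 189 of the 205 ends in ES-1. The screened share of the fibroblast list was 70.3% of 128 ends, 75% of 28 and 7.14% of 28. Lum, Dcn, Tagln and Snai2 were at 0 in all 3 libraries, and Col1a1 (2, 2, 0) and Pdgfra (1, 3, 0) followed Fn1 in snoRNA contacts.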

How the data were processed

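Per the labels, paired-end reads of chimeric RNA were made from E14 ES cells. The authors removed duplicate reads by place and random barcode, assigned samples, located the linker, mapped both fragments to mm9 and annotated them, ignoring strand. The deposited files list read pairs (ES-1 3230403, ES-2 1312314, ES indirect 3302146) with coordinates, sequences and names but no measured value, so lines were counted here. Lines with a ribosomal or unannotated end, both ends in 1 RNA, or ends within 2000 bp were left out, and repeats of the same coordinates (41.2%, 7.33% and 17.8% of lines of these contacts) were collapsed. Sequences were set against NCBIM37 and strands against GENCODE vM1 (Python 3.11.15, pandas 2.3.3, NumPy 2.4.6, SciPy 1.17.1, pysam 0.24.0). Stretches of 16 bases were taken from 1 in 3 lines and kept if seen in at least 10 ends.

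Pairs were tested by Fisher's exact test, which the study also used, but on collapsed contacts and with a minimum of 3 contacts added. Exons and introns of a protein-coding gene were taken as separate RNAs, so the total of an mRNA is that of its exons. P-values were adjusted over observed pairs only. The members and gene lists were chosen with earlier results of these data known. Named in the text are the 12 mRNAs and 10 snoRNA genes with the largest smaller count of ES-1 and ES-2, the 12 called pairs with most contacts that occur in both libraries, the first 3 members of each list, and Trim25 with SNORA1. Some genes that this rule names are not reported here. Alternatives covered collapsing, strand, match, fragment length, distance, flow cell, single libraries, overlap with snoRNA genes, position measured, weighting, gene names, site width, test nodes and minimum contacts. The screen and its variants, GENCODE places, full-length reads, the last base and the 5-base window were added after seeing the data.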

Additional observations from a re-analysis of the deposited data

How the results depend on the processing

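Of 140 values recomputed under 26 alternative settings, 107 stayed within the spread of ES-1 and ES-2 or within 1.5 times the reported count, and 33 moved. Reversal was not assessed. The spread is the standard deviation of these 2 libraries, so a share from the larger ES-1 alone lies within it almost by design. Counting every line could not change recurrence, which asks for 1 contact only. The 5′ UTR, exon and 3′ UTR shares of ES-1 and ES-2 together (19.97%, 53.9% and 26.2%) became 12.4% and 57.9% for the first 2 with matching ends only, 9.22%, 60.1% and 30.7% after the screen, and 61.3% for the exon share by GENCODE place. Leaving out a library gave 16.995% to 27.6%, 50.8% to 55.1% and 21.7% to 27.9%. The terminal share was 67.1% for H/ACA and 81.3% for C/D snoRNAs. By the middle of the fragment it was 9.77% and 2.06%, and for C/D 77.9% after the screen and 72.2% within 5 bases of the end. The middle lies inwards of the linker-facing end, and the median snoRNA fragment had 57 nt, so the share by the middle was bound to be lower. Leaving out a library gave 63.3% to 77.3% for H/ACA and 80.2% to 83.6% for C/D. The sense share of mRNA ends was 91.8% with matching ends (98.5% for snoRNA ends), 98.0% after the screen with antisense ends kept, and 71.1% to 85.1% without a library (98.4% to 98.5% for snoRNA ends). Recurring pairs fell from 1788 to 924 with matching ends, 1096 with fragments of at least 20 bases and 532 after the screen, where mRNAs and sites were 2308 and 1441, and without Snrpb and Chn1 these were 513, 2306 and 1439. Called pairs numbered 300, but 4956 with every line counted, 102 on flow cell A, 168 on flow cell B, 1221 and 51 with at least 2 and 5 contacts, and 47 to 262 without a library, 47 being ES-2 alone. Except for the single libraries, the share called over all observed pairs was not computed under these settings. The causes were not tested. No paired analysis was possible because contacts were pooled within each library and no test was made across samples. ES indirect had only 1469 such contacts, 0.749% of its between-RNA contacts, which limits what can be said of single mRNAs there.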

Other observations

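Within a library, both flow cells gave similar region shares and fragment lengths. Contacts read on both flow cells were counted on each, so the values are not independent. ES-1 had 18539 contacts on flow cell A and 28354 on flow cell B, and ES-2 had 8875 and 6340. The numbers of called pairs given above are for ES-1 and ES-2 together, and depend on the number of contacts. The 5′ UTR share of the contacts was 16.1% on flow cell A and 17.1% on flow cell B in ES-1, and 27.8% and 27.6% in ES-2. The median mRNA fragment was 44 and 41 nt in ES-1 and 23 nt on both in ES-2.

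Exons of genes that host snoRNAs held 5.18% of the screened contacts of ES-1, 4.80% of ES-2 and 5.38% of ES indirect, over 170 host genes. In ES indirect Zdhhc3 had the most contacts, 15, and of 1181 mRNAs 53 had 3 or more and 8 had 5 or more. After the screen the largest number was 5, and of 842 mRNAs 38 had 3 or more and 2 had 5.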
